A study of Mus musculus with 26 samples.

Results

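The genes of Polycomb repressive complex 2 (PRC2) were followed through RNA-Seq and CUT&RUN of mouse embryonic fibroblasts (MEFs). The 10 genes Ezh2, Ezh1, Eed, Suz12, Rbbp4, Rbbp7, Jarid2, Aebp2, Mtf2 and Phf19 were taken by name as subunits of the complex, not by a rule on their values. All 10 were matched to an Ensembl identifier among the 53801 genes listed in each RNA-Seq file. The study asks how the RNA-binding region (RBR) of the chromatin remodeller ATRX bears on where ATRX and PRC2 sit on chromatin. WT cells were female MEFs without this edit. ATRXΔRBR cells were a single clone of these MEFs in which CRISPR removed the RBR in frame from the endogenous gene, so that an effect of the deletion and of the clone cannot be told apart. ATRX KD cells were female MEFs that carry an ATRX shRNA and were selected with puromycin. All were grown in high-glucose DMEM with calf serum. RNA-Seq was available for 2 libraries of each genotype. CUT&RUN, which cuts and sequences the chromatin under an antibody, was available as 16 peak lists, 2 per genotype and target. ATRX was profiled in WT and ATRXΔRBR, and EZH2 and trimethylated lysine 27 of histone H3 (H3K27me3) in all 3 genotypes.

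PRC2 is the enzyme that places H3K27me3, a mark of silent genes. EZH2 or its paralog EZH1 carries the catalytic SET domain, EED reads the mark and stimulates the enzyme, SUZ12 holds the complex together, and RBBP4 and RBBP7 are histone-binding WD40 proteins. Accessory subunits split the complex into PRC2.1, with a Polycomb-like protein such as MTF2 or PHF19, and PRC2.2, with JARID2 and AEBP2. Dividing cells typically rely on EZH2, and resting cells have relatively more EZH1.

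The RNA-Seq libraries held between 9051693 and 21723647 estimated counts. TPM is RSEM's measure of a gene's share of all transcripts after division by length. Summed over 10 fibroblast markers, WT libraries had 13684 and 11365 TPM, ATRXΔRBR libraries 21232 and 23303 TPM and knockdown libraries 18610 and 18853 TPM, so that the genotypes did not overlap, and the part of this sum in the differences of PRC2 genes was not tested. Among the markers, S100a4 reached the highest level, at 4164 to 11816 TPM, so that the sum leans on this gene. Vim and Col1a1 were also high. Col3a1 was at 0.36 to 32.2 TPM and Pdgfra at 10.6 to 15.0 TPM. Dcn was at most 4.22 TPM and Thy1 was at 0 in every library. Each list of markers of epithelial, endothelial, blood, muscle or pluripotent cells summed to at most 12.1 TPM in any library. Atrx RNA was not detectably lower in the knockdown, with a log2 fold change against WT of −0.15 (SE 0.21, adjusted p = 0.605, edgeR quasi-likelihood test, Benjamini-Hochberg adjusted). On the scale of log2(mean TPM + 1) the difference was 1.17, in the other direction. The transcript length that RSEM estimated for Atrx was 4936.5 and 6255 bases in WT and 2803 and 2368 in the knockdown. TPM divides by this length, so that TPM and counts of Atrx moved differently. Counts and TPM are RNA values, and protein was not measured in these libraries. The paper describes ATRX as acutely depleted in its knockdown MEFs and shows a western blot for the protein. Since the RNA values do not show a loss, the knockdown is referred to below by its label, as the libraries labelled ATRX KD. In ATRXΔRBR, the log2 fold change of Atrx against WT was −0.63 (SE 0.22, adjusted p = 0.14, edgeR quasi-likelihood test, Benjamini-Hochberg adjusted). WT and ATRXΔRBR share a run name in their raw file names and the knockdown does not, so that the run and the knockdown cannot be told apart. In bulk RNA, fewer cells of a type and less RNA per cell cannot be told apart either.

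Promoters are shown for Ezh2, Phf19, Ezh1 and Aebp2, a choice among the PRC2 genes. They are the 200 bases before the outermost GENCODE start, read from the RefSeq copy of GRCm38. Capitals mark TTCCCGC on either strand, a core of the sites that E2F factors bind, and this was the motif found in them. TTGGCGC and CCAAT were searched as well, also on both strands. TTCCCGC occurred in 4.08% of 21933 promoters of protein-coding genes, TTGGCGC in 1.96% and CCAAT in 31.7%. The motifs were chosen with these sequences in view. Ezh2 held TTCCCGC at 2 places and Phf19 at 1, and none of the 3 motifs was found in the windows of Ezh1 and Aebp2.
Ezh2, minus strand of chr6:47595342-47595541: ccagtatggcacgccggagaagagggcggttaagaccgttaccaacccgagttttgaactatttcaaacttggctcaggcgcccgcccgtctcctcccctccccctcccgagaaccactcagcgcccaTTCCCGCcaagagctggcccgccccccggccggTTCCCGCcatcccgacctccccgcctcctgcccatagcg
Phf19, minus strand of chr2:34914027-34914226: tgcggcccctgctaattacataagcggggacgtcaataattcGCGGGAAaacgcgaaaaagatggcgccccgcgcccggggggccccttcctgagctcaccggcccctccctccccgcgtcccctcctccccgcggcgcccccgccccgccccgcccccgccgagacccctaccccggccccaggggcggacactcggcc
Ezh1, minus strand of chr11:101226464-101226663: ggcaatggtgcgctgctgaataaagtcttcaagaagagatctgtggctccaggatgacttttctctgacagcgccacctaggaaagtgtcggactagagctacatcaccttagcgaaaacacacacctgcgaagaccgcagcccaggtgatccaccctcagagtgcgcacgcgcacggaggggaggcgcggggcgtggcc
Aebp2, plus strand of chr6:140622463-140622662: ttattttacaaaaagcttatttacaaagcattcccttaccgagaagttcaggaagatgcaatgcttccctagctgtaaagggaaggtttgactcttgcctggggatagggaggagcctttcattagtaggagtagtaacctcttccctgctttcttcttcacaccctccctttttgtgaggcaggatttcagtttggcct
The promoters differed in CpG content. Phf19 had 25 CpG dinucleotides in its 200 bases, Ezh2 18 and Ezh1 13, beside a median of 7 over all promoters searched. Aebp2 had 1, at a GC content of 44.0%. Mtf2, Eed and Rbbp7, which also fell in the libraries labelled ATRX KD as described below, are not printed. They had 20, 8 and 24 CpG dinucleotides, and none of them held TTCCCGC.

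In WT cells, expressed per length as TPM, the 10 genes spanned from the histone-binding subunits at the top to Jarid2 at the bottom. Rbbp4 had 476 and 358 TPM in the WT libraries and Rbbp7 had 344 and 392, so that the order of this pair was not resolved. Ezh2 followed with 204 and 177 TPM, Eed with 125 and 118, and Suz12 with 90.2 and 118. Mtf2 (74.3 and 88.6 TPM) and Aebp2 (70.9 and 88.9 TPM) overlapped each other. Phf19 stood at 17 and 19.2 TPM and Ezh1 at 12.3 and 16.5 TPM. Jarid2, whose protein recruits PRC2 and is itself methylated by it, was lowest with 6.5 and 8.22 TPM. Apart from the 2 pairs named, neighbours in this order had ranges that did not overlap in the 2 WT libraries. Among 9578 protein-coding genes with at least 5 TPM in both WT libraries, 96.6% were lower than Rbbp4, 89.6% lower than Ezh2 and 3.65% lower than Jarid2.

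The sum over the 10 genes stayed within 1300 to 1448 TPM in the 6 libraries. The order within it changed at 2 places. Ezh1 ranked below Phf19 in WT and above it in ATRXΔRBR and in the libraries labelled ATRX KD, and Suz12 ranked below Eed in WT and above it in the other genotypes. These are orders of TPM, which divide by an abundance-weighted transcript length that RSEM estimated in each library. For Suz12 that length was 4257 and 3997 bases in WT and 3427 and 2976 in the libraries labelled ATRX KD, so that its TPM and its counts moved differently there.

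**Figure D1:**
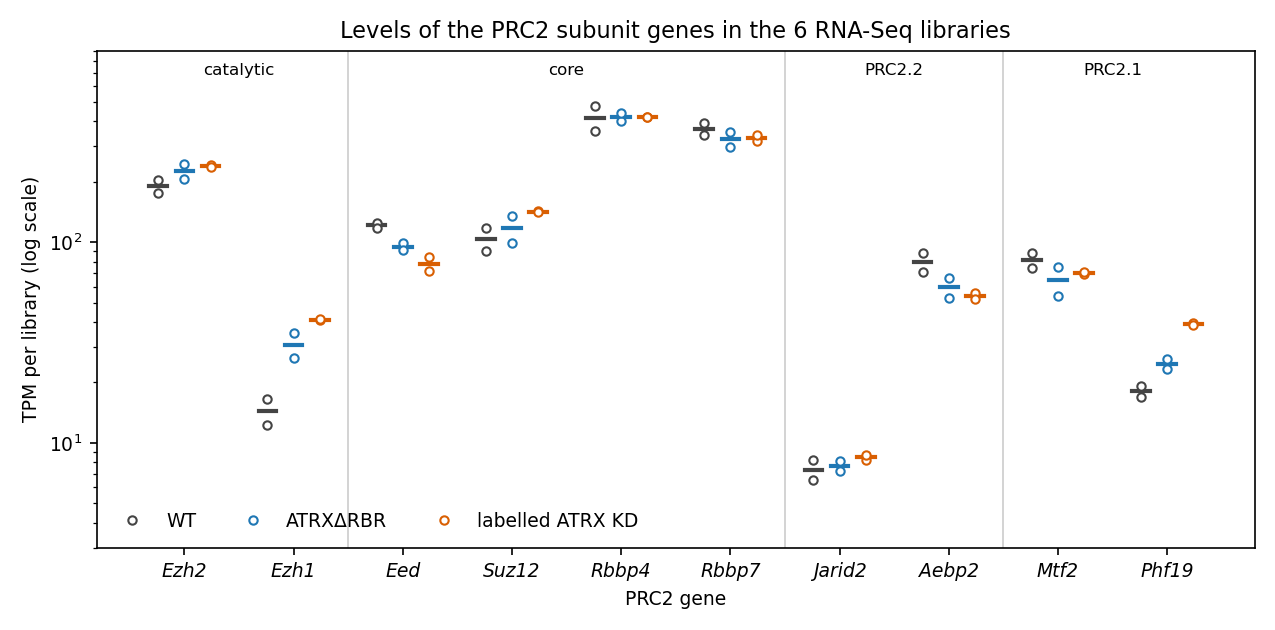
TPM (log axis) of the 10 PRC2 genes in each of the 6 RNA-Seq libraries, with open circles for libraries and a bar for the mean of 2 libraries. Ezh1 and Phf19 lie higher in ATRXΔRBR and in the libraries labelled ATRX KD than in WT, Aebp2 lies lower, and Rbbp4 lies between 358 and 476 TPM.

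In ATRXΔRBR, the minor catalytic subunit Ezh1 was the one PRC2 gene called by the test without pairing. Of 16334 genes tested against WT, 6.85% were called (adjusted p under 0.05, edgeR quasi-likelihood test, Benjamini-Hochberg adjusted), 2.79% higher and 4.07% lower in ATRXΔRBR. Of the 10 PRC2 genes, 1 rose, 0 fell and 9 were not called. At an unadjusted p under 0.05, 1 gene was higher and 1 lower, and DESeq2 called 1 higher and 0 lower. The share of PRC2 genes called without pairing was thus near that of all genes. Their median log2 fold change was 0.04, beside −0.02 over all genes tested. A crossed pairing of replicate numbers, chosen after seeing the data, called 7 of the 10 PRC2 genes and 5585 of the 16334 genes tested. With the replicate number as a block, the count stayed at 1. The count thus held without pairing and with same-numbered pairs, but not with the crossed pairing.

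Ezh1 (ENSMUSG00000006920) occupies chr11:101191115-101226463 on the minus strand. Scaled to library size as CPM, which does not divide by gene length, it had 24.4 and 27.5 CPM in WT and 57.0 and 48.7 in ATRXΔRBR. Both ATRXΔRBR libraries were above both WT libraries. The log2 fold change was 1.03 (SE 0.19, adjusted p = 0.0161, edgeR quasi-likelihood test, Benjamini-Hochberg adjusted), a 2.05-fold difference. Ezh1 was called in 10 of 10 alternative fits, with adjusted p between 0.000185 and 0.0264.

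Ezh2 (ENSMUSG00000029687, chr6:47530139-47595341, minus strand) had 146 and 136.5 CPM in WT and 176.5 and 165 in ATRXΔRBR. The groups did not overlap, but the log2 fold change of 0.28 (95% interval −0.10 to 0.66) was not called (adjusted p = 0.392, edgeR quasi-likelihood test, Benjamini-Hochberg adjusted). The 67 tested genes with a start within 5 Mb of the Ezh2 start had a median log2 fold change of 0.31 in the same comparison. Of these neighbours, 33 lay below Ezh2, and the part of the neighbourhood in it was not tested.

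Among the core subunits in ATRXΔRBR, none was called by the test without pairing. Their log2 fold changes were −0.27 for Eed (ENSMUSG00000030619, chromosome 7), 0.14 for Suz12 (ENSMUSG00000017548, chromosome 11), −0.07 for Rbbp4 (ENSMUSG00000057236, chromosome 4) and −0.25 for Rbbp7 (ENSMUSG00000031353, chromosome X). The widest of their 95% intervals was that of Rbbp4, from −0.50 to 0.37. Among the accessory subunits, Jarid2 (ENSMUSG00000038518, chromosome 13) was at 0.16, Mtf2 (ENSMUSG00000029267, chromosome 5) at −0.40 and Phf19 (ENSMUSG00000026873, chromosome 2) at 0.39. None of the 3 was called by this test, and each of their 95% intervals included 0.

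Aebp2 (ENSMUSG00000030232) encodes a zinc finger protein that binds DNA and stabilizes PRC2.2, and occupies chr6:140622663-140678472 on the plus strand. It had 175 and 174 CPM in WT and 126 and 115 in ATRXΔRBR, with both ATRXΔRBR libraries below both WT libraries. The log2 fold change was −0.53 (SE 0.16, adjusted p = 0.1105, edgeR quasi-likelihood test, Benjamini-Hochberg adjusted) and was not called. Aebp2 was called in 1 of 10 alternative fits without crossed replicate numbers, that of all 6 libraries together (adjusted p = 0.032), and the adjusted p of the alternatives lay between 0.032 and 0.47.

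In the libraries labelled ATRX KD, 7 of the 10 PRC2 genes changed against WT, in both directions. Ezh1, Phf19 and Ezh2 rose, and Aebp2, Mtf2, Eed and Rbbp7 fell. Of 16785 genes tested, 33% were called with edgeR, 15.2% higher and 17.8% lower. The PRC2 genes all had at least 10 counts in every library, and among genes with such counts 4701 of 11758 were called. DESeq2 called 2 of the PRC2 genes higher and 4 lower. The median log2 fold change of the 10 genes was −0.12, beside −0.02 over all genes tested. Both this comparison and that of ATRXΔRBR used the same WT libraries, and a gene that moved alike in both is no independent repeat.

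Ezh1 had 62.04 and 62.6 CPM in the libraries labelled ATRX KD, both above the 24.4 and 27.5 CPM of WT. The log2 fold change was 1.26 (SE 0.13, adjusted p = 0.000926, edgeR quasi-likelihood test, Benjamini-Hochberg adjusted), a 2.40-fold difference. The major catalytic subunit Ezh2 had 185 and 181 CPM, above the 146 and 136.5 CPM of WT. Its log2 fold change was 0.37 (SE 0.11, adjusted p = 0.04345, edgeR quasi-likelihood test, Benjamini-Hochberg adjusted), a 1.29-fold difference. This call was not kept with DESeq2 (adjusted p = 0.0638), with all 6 libraries in a fit (0.0524), with the replicate number as a block (0.106), or without replicate 1 (0.382) or replicate 2 (0.3095) of the libraries labelled ATRX KD. The adjusted p of Ezh2 ranged from 1.89e-06 to 0.382 over the 10 alternatives.

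The ratio of Ezh2 to Ezh1, both in TPM, was 16.6 and 10.7 in the WT libraries. It was 7.01 and 7.78 in ATRXΔRBR and 5.96 and 5.69 in the libraries labelled ATRX KD. Each of the 3 genotypes occupied its own range, in this order. In CPM the mean ratio was 5.48 in WT, 3.24 in ATRXΔRBR and 2.93 in the libraries labelled ATRX KD, so that its size in WT depended on the scale. The exact permutation test of 2 libraries against 2 gave a two-sided p of 0.333 for each pair of genotypes, which is the smallest this design allows. Cell cycle genes were counted beside this ratio, and their part in it was not tested. Of 19 proliferation genes, 0 were called in ATRXΔRBR, beside 6.85% of all genes tested, and the median log2 fold change was −0.12. At an unadjusted p under 0.05, edgeR's quasi-likelihood test had 1 of them higher and 3 lower, and DESeq2 called 1. In the libraries labelled ATRX KD, 5 rose and 5 fell, with a median of 0.05, beside 33% of all genes tested that were called. Top2a, the topoisomerase of dividing cells, rose by 0.80 on the log2 scale there (SE 0.12, adjusted p = 0.00361, edgeR quasi-likelihood test, Benjamini-Hochberg adjusted). Cdk1, the kinase of mitotic entry, fell by 0.38 (SE 0.10, adjusted p = 0.0305, the same test). The other abundant genes of the list, Mcm6 of the replicative helicase at 0.20 (adjusted p = 0.187) and the cyclin gene Ccna2 at −0.16 (adjusted p = 0.292), were not called by this edgeR test.

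Among the core subunits, Eed had 72.9 and 59.6 CPM in WT and 43.2 and 48.15 in the libraries labelled ATRX KD, which did not overlap. The log2 fold change was −0.54 (SE 0.15, adjusted p = 0.0305, edgeR quasi-likelihood test, Benjamini-Hochberg adjusted). Rbbp7 had 392 and 342 CPM in WT and 256 and 275.5 in the libraries labelled ATRX KD, with a log2 fold change of −0.47 (SE 0.12, adjusted p = 0.0238, the same test). In TPM the log2 difference of Rbbp7 was −0.15 and the groups overlapped. Both calls were lost when either library labelled ATRX KD was left out, with adjusted p of 0.258 and 0.139 for Eed and 0.293 and 0.1965 for Rbbp7. Their adjusted p reached from 4.4e-11 to 0.258 and from 7.79e-15 to 0.293 over all alternatives. The gene Gm6382 matches an Rbbp7 transcript over 942 bases at 97.1% identity, and it had 25 to 99 estimated counts.

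Suz12 and Rbbp4 were not called. Suz12 had 211 and 232 CPM in WT and 217 and 190.5 in the libraries labelled ATRX KD, which overlapped. It had a log2 fold change of −0.12 in counts (95% interval −0.42 to 0.17), while on the scale of log2(mean TPM + 1) the difference was 0.45. Over 9509 genes with at least 5 TPM in every library, the median difference was −0.03 in counts and 0.20 in TPM. The typical gene of this set thus lay higher in TPM, but not in counts, in the libraries labelled ATRX KD. Rbbp4 had a log2 fold change of 0.03, with an interval from −0.33 to 0.38. Its sign depended on which WT library was left out. It was 0.23 without WT replicate 1 (adjusted p = 0.00256) and −0.17 without WT replicate 2 (adjusted p = 0.0306, edgeR quasi-likelihood test), with adjusted p from 0.00256 to 0.957 over the alternatives. Suz12 was called lower without WT replicate 1 (adjusted p = 0.0105, the same test), with a range from 0.0105 to 0.989. Rbbp4 overlaps Sync and Gm26722 on the other strand, and whether the counting used strand is not given in the sources used here.

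The accessory subunits went in opposite directions. Phf19, a PRC2.1 subunit whose Tudor domain reads methylated H3K36, had 31.9 and 33.3 CPM in WT and 56.15 and 59.96 in the libraries labelled ATRX KD. Both were above the WT range. The log2 fold change was 0.83 (SE 0.13, adjusted p = 0.00372, edgeR quasi-likelihood test, Benjamini-Hochberg adjusted), a 1.78-fold difference. Mtf2, its PRC2.1 paralog that binds CpG islands, had 132 and 138 CPM in WT and 77.4 and 80.01 in the libraries labelled ATRX KD. Its log2 fold change was −0.78 (SE 0.11, adjusted p = 0.00307, the same test), a 1.72-fold difference. Mtf2 shares 396 bases with Tmed5 on the other strand, which itself had 1834 to 5000 estimated counts, so counts from this stretch are uncertain if strand was not used. The TPM of Mtf2 was 69.7 and 71.3, and its log2 difference in TPM was −0.21, smaller than in counts.

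Aebp2 had 79.6 and 87.2 CPM in the libraries labelled ATRX KD, less than any of the other 4 libraries. Its log2 fold change against WT was −1.07 (SE 0.12, adjusted p = 0.00104, edgeR quasi-likelihood test, Benjamini-Hochberg adjusted), a 2.1-fold difference, and in TPM it was −0.56. Jarid2, the other PRC2.2 subunit, had 17.5 and 20.2 CPM in WT and 17.7 and 17.5 in the libraries labelled ATRX KD. Its log2 fold change of −0.11 (95% interval −0.49 to 0.27) was not called. The calls of Ezh1, Phf19, Aebp2 and Mtf2 were each kept in 10 of 10 alternative fits.

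The PRC2.1 and PRC2.2 genes were also set against each other as a ratio. The summed TPM of Mtf2 and Phf19 was 1.18 and 1.11 times that of Jarid2 and Aebp2 in the WT libraries. In ATRXΔRBR the ratio was 1.37 and 1.28, and in the libraries labelled ATRX KD it was 1.70 and 1.81. The genotypes did not overlap, and the two-sided exact permutation test again gave the smallest possible p of 0.333 for each pair. In CPM, which is not divided by length, the mean ratio was 0.867 in WT, 1.02 in ATRXΔRBR and 1.355 in the libraries labelled ATRX KD, in the same order. The PRC2.2 sum leans on Aebp2, with a mean of 79.9 TPM in WT beside 7.36 for Jarid2. Aebp2 moved like its neighbours on chromosome 6, as described below, and its part in the ratio was not tested. The PRC2.1 sum leaves out Phf1, another Polycomb-like gene, which had a mean of 29.4 TPM in WT and 21.1 in the libraries labelled ATRX KD.

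**Figure D2:**
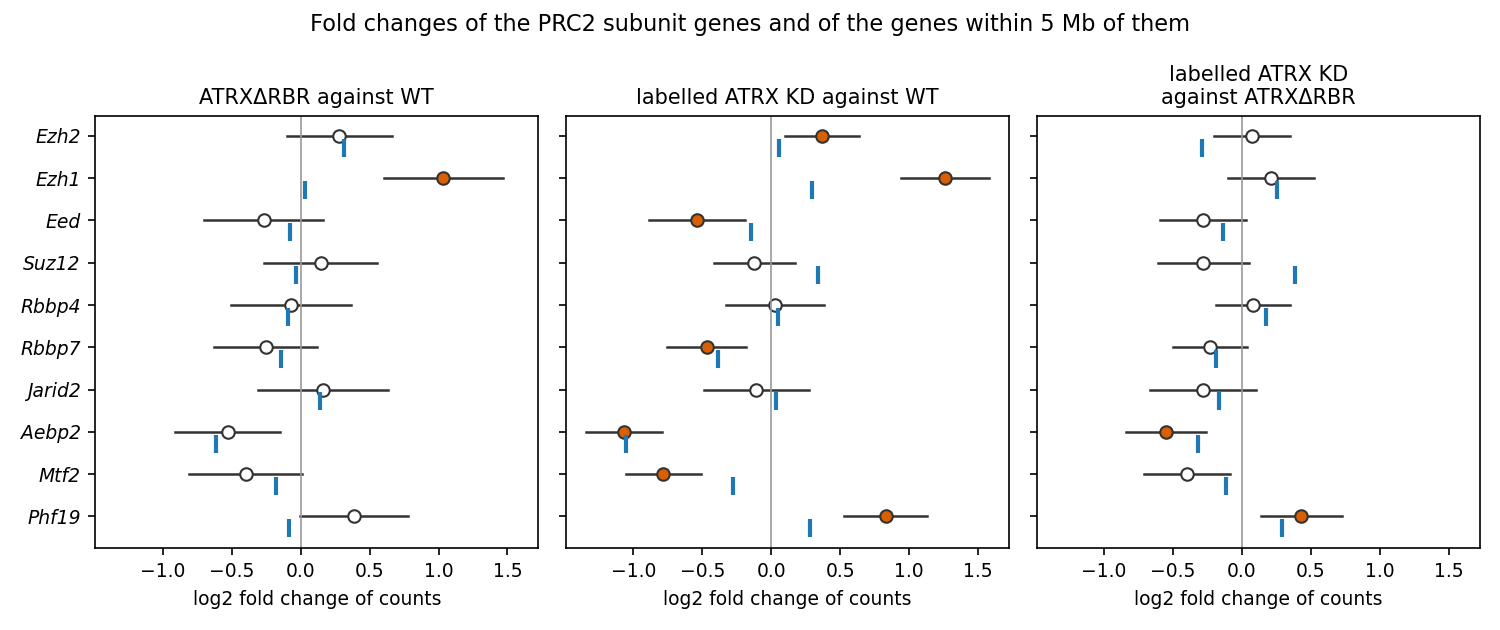
Log2 fold changes of counts of the 10 PRC2 genes in 3 comparisons, with 95% intervals (lines) and genes called by edgeR filled. Blue ticks mark the median log2 fold change of the tested genes within 5 Mb of each gene, which lies at −1.055 for Aebp2 and at 0.29 for Ezh1 in the libraries labelled ATRX KD against WT.

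The libraries labelled ATRX KD were also compared directly with ATRXΔRBR. Of 16520 genes tested, 34.7% were called with edgeR, 16.2% higher and 18.5% lower in the libraries labelled ATRX KD. Of the 10 PRC2 genes 1 rose, 1 fell and 8 were not called. Phf19 had 42.2 and 42.5 CPM in ATRXΔRBR and 56.15 and 59.96 in the libraries labelled ATRX KD, with a log2 fold change of 0.43 (SE 0.13, adjusted p = 0.0315, edgeR quasi-likelihood test, Benjamini-Hochberg adjusted). Aebp2 fell by 0.55 on the log2 scale of counts (SE 0.13, adjusted p = 0.0105, the same test), while its log2 difference in TPM was −0.14 and the groups overlapped in TPM. Without replicate 1 or replicate 2 of the libraries labelled ATRX KD, neither was called, with adjusted p of 0.249 and 0.345 for Phf19 and of 0.229 and 0.137 for Aebp2. DESeq2 gave an adjusted p of 0.0509 for Phf19. The adjusted p of the alternatives lay between 0.000154 and 0.345 for Phf19 and between 1.57e-11 and 0.229 for Aebp2. For Ezh1 the log2 difference was 0.21 (95% interval −0.10 to 0.52), which was not called. It was called without ATRXΔRBR replicate 1 (adjusted p = 0.00321, edgeR quasi-likelihood test, range 0.00321 to 0.657 over the alternatives). Mtf2 had a log2 difference of −0.40 (adjusted p = 0.0513, the same test) and was called in 3 of 10 alternatives, without ATRXΔRBR replicate 1 (0.0053), without ATRXΔRBR replicate 2 (2.43e-08) and with the replicate number as a block (0.0256), while its range reached 0.376. In TPM its difference was 0.13, of the other sign.

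Aebp2 was not alone on its chromosome. Of its 34 tested neighbours within 5 Mb, 19 fell and 1 rose in the libraries labelled ATRX KD against WT. Their median log2 fold change was −1.055, beside −1.07 for Aebp2 itself, and 17 of the 34 lay below it. In ATRXΔRBR against WT, 4 neighbours fell and 0 rose, and the median was −0.62, beside −0.53 for Aebp2. As a description, 0.126% of 16725 such windows around genes had a median this low or lower in the first comparison and 0.1045% of 16274 in the second.

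The lower values covered a long stretch of the chromosome. In the libraries labelled ATRX KD, the median was 0.21 over the 512 tested genes at −140 to −50 Mb from the Aebp2 start. It was −0.27 over the 99 genes at −50 to −25 Mb, −0.72 over the 107 genes at −25 to −15 Mb, −1.15 over the 44 genes at −15 to −10 Mb, −0.65 over the 23 genes at −10 to −5 Mb and −0.60 over the 40 genes at 5 to 10 Mb. In ATRXΔRBR the corresponding medians were 0.18, −0.54, −0.43, −0.44, −0.19 and −0.41, so that the stretch at −10 to −5 Mb had the median nearest to 0 of those after −50 Mb. Replicates were alike in this. For 31 neighbours tested in each comparison, the median log2 CPM against the WT mean was −0.40 and −0.43 in the ATRXΔRBR libraries and −0.88 and −0.87 in the libraries labelled ATRX KD. The copy number of the region was not measured, and the part of the region in the values of Aebp2 was not tested.

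**Figure D3:**
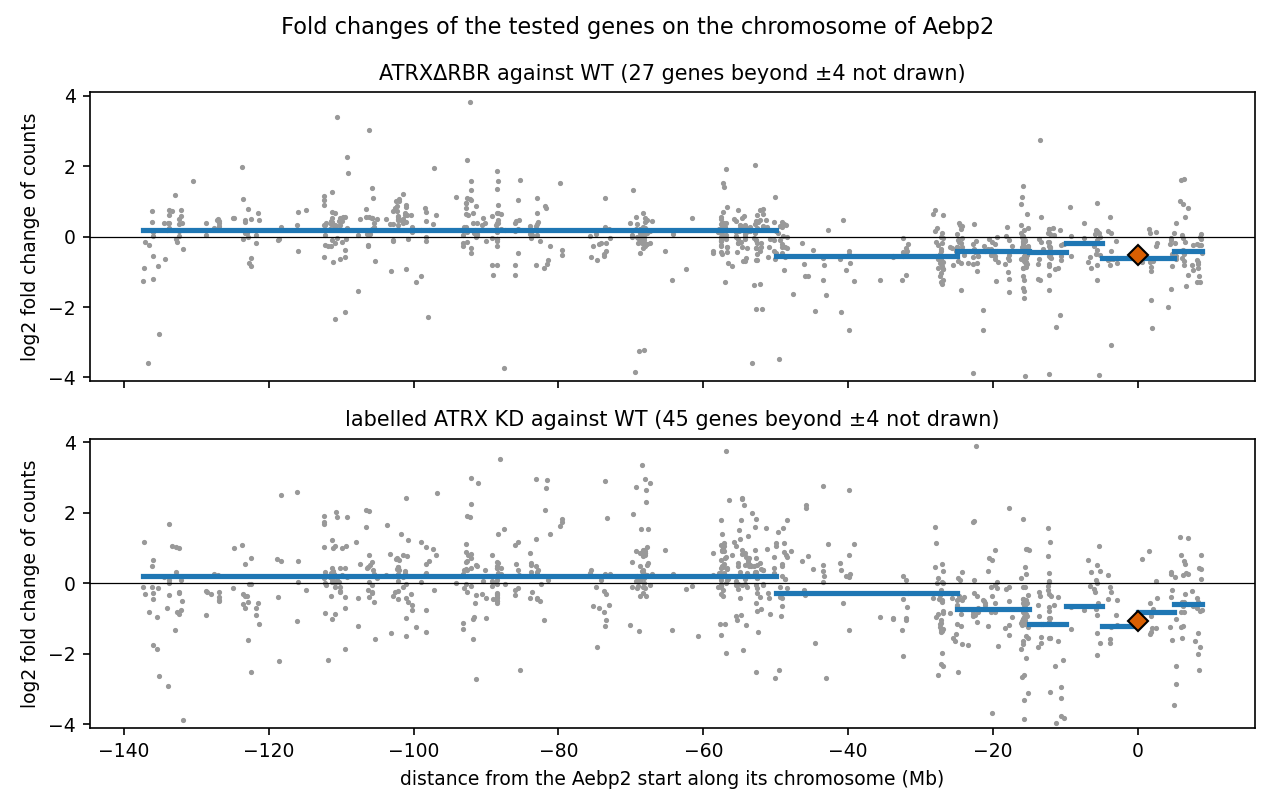
Log2 fold change of counts of each tested gene on chromosome 6 (grey points) against its distance from the Aebp2 start in Mb, in ATRXΔRBR and in the libraries labelled ATRX KD, both against WT. Blue lines are medians of stretches and the diamond is Aebp2, which lies among its neighbours in both panels.

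Against WT, Ezh1, Phf19 and Mtf2 differed from the median of their neighbours by more than Aebp2 did. In the libraries labelled ATRX KD, so did every other PRC2 gene. The 213 neighbours of Ezh1 had a median of 0.29 in the libraries labelled ATRX KD against WT, which was 0.97 below Ezh1, and a median of 0.03 in ATRXΔRBR, which was 1.005 below it. In the libraries labelled ATRX KD against WT, the median of 136 neighbours of Phf19 was 0.28, which was 0.55 below the gene. For Mtf2 the median of 112 neighbours was −0.28, which was 0.50 above the gene. In that comparison 199 of 213 neighbours lay below Ezh1, 111 of 136 below Phf19 and 26 of 112 below Mtf2. Each of these genes thus lay within the spread of its neighbours. Rbbp7 on chromosome X was close to its 35 neighbours, whose median was −0.38 beside −0.47 for the gene. In the same comparison the gene minus its neighbours' median was −0.46 for Suz12, −0.39 for Eed and 0.31 for Ezh2. Between the libraries labelled ATRX KD and ATRXΔRBR, the gene minus its neighbours' median was −0.24 for Aebp2, −0.04 for Ezh1, 0.14 for Phf19 and −0.28 for Mtf2.

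Of 9 further PRC2 partners and H3K27 demethylases, 8 could be tested, and Ezhip, a PRC2 inhibitor, had 0 counts in every library. In ATRXΔRBR 0 of the 8 were called. At an unadjusted p under 0.05, edgeR's quasi-likelihood test had 1 higher and 1 lower, and DESeq2 called 1 lower. In the libraries labelled ATRX KD 0 rose and 3 fell against WT, and 0 rose and 3 fell against ATRXΔRBR. Of all genes tested, 33% and 34.7% were called in these comparisons, so that 3 of 8 was near the background. Phf1, Elob and Eloc fell in each of these comparisons, which share the libraries labelled ATRX KD. Phf1, the Polycomb-like paralog of Mtf2 and Phf19, had a log2 fold change of −0.70 against WT and −0.67 against ATRXΔRBR. Elob, an elongin subunit found in some PRC2.1 complexes, was at −1.27 and −1.003, and its partner Eloc was at −0.50 and −0.38. The adjusted p of these 6 values lay between 0.0011 and 0.0397 in the edgeR quasi-likelihood test after Benjamini-Hochberg adjustment. Neither demethylase was called. Kdm6a, an X-linked demethylase that removes H3K27me3, was at −0.16 both in ATRXΔRBR and in the libraries labelled ATRX KD, and Kdm6b at 0.44 and 0.10. The largest change of the 8 in ATRXΔRBR was that of Epop, with 25.1 and 13.5 CPM in WT and 5.04 and 10.25 in ATRXΔRBR. Its log2 fold change of −1.31 (SE 0.39, adjusted p = 0.096, edgeR quasi-likelihood test, Benjamini-Hochberg adjusted) was not called.

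The patterns of the 2 catalytic genes over the 6 libraries were compared with those of 9510 genes expressed at 5 TPM or more in every library, as a description. The genes nearest to Ezh1 in log2 CPM were Fam168b, Nceh1 and Ralgps2, with Pearson's r of 0.999, 0.999 and 0.997. Those nearest to Ezh2 were Dpysl3, Cep170b and Decr2, each with r of 0.992. Ezh1 and Ezh2 themselves had r of 0.959. The 6 points share genotypes in pairs, and libraries of a genotype lie close together.

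EZH2 peaks were counted at the starts of the PRC2 genes themselves. A peak was counted at a start when it lay within 2 kb of the outermost annotated TSS. EZH2 peaks were at 9 of the 10 starts in WT replicate 1 and at 8 in WT replicate 2, with 7 in both lists. Ezh1, Aebp2 and Phf19 each had one in 1 of the 2 WT lists. Among expressed protein-coding genes (at least 5 TPM), 84.4% and 78.4% had such a peak in the 2 lists and 75.6% in both. The share of PRC2 genes was thus near the background of expressed genes. The lists had no H3K27me3 peak at any of the 10 starts in WT, where 3.21% and 3.70% of the expressed genes had one.

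Among the promoters printed above, EZH2 peaks reached those of Ezh2 and Ezh1, with positions counted from the start and negative before it. At Ezh2, the peak of WT replicate 1 ran from −235 to 1099 and that of WT replicate 2 from −390 to 219. At Suz12 the peaks ran from −548 to 128 in WT replicate 1 and from −402 to 20 in WT replicate 2. Ezh2 and Suz12 were the genes with an EZH2 peak at the start in all 6 lists. At Ezh1, a peak over the start was listed in WT replicate 2 (−88 to 59) and ATRXΔRBR replicate 1 (−303 to 77), and a separate peak in WT replicate 1 and ATRXΔRBR replicate 1 began 4882 bases inside the gene. Aebp2, with its CpG-poor start, had an EZH2 peak in WT replicate 1 alone, from −895 to −750. The peaks within 2 kb of the Phf19 start lay outside its printed promoter, from −479 to −214 and from 536 to 681 in WT replicate 1 and from 397 to 702 in ATRXΔRBR replicate 1. No list had an EZH2 peak elsewhere in Aebp2.

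In ATRXΔRBR, EZH2 peaks were at 9 starts in replicate 1 and at 5 in replicate 2. Eed, Ezh2, Mtf2, Rbbp4 and Suz12 had one in both. With −log10 q of at least 2, the count of replicate 2 was 1. The background in expressed genes was 87.3% and 57.7%, and 57.1% in both, so the counts of PRC2 genes moved with those of all expressed genes. In the lists labelled ATRX KD, EZH2 peaks were at 3 and 4 starts, and at Ezh2 and Suz12 in both. There the background was 31.4% and 41.2%, and 26.2% in both. These lists were also shorter, with 5376 and 7093 peaks, against 22316 and 18351 in WT, and the read depth is not known from peak lists. No H3K27me3 peak lay at any of the 10 starts in ATRXΔRBR or in the lists labelled ATRX KD, where 1.10% to 5.31% of expressed genes had one. A peak absent from a list may have been below its detection limit.

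ATRX peaks at these starts were not reproduced in any genotype. WT replicate 1 had one at Ezh2 and at Aebp2, and WT replicate 2 had one at Rbbp4. ATRXΔRBR replicate 1 had one at Jarid2 and at Rbbp4, and replicate 2 had 0. Of expressed genes, 6.96% in WT and 6.02% in ATRXΔRBR had an ATRX peak at the start in both lists. The ATRX peak of Ezh2 lay within its EZH2 peak, from 35 to 249 bases after the start.

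**Figure D4:**
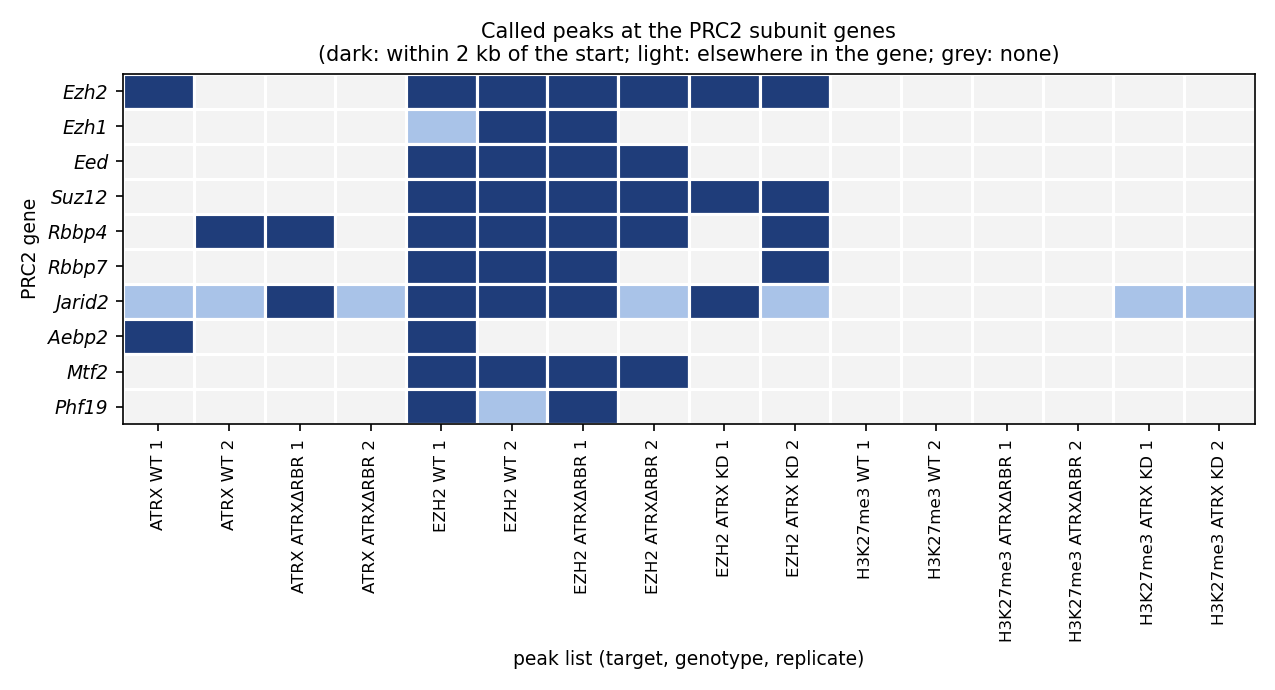
Called peaks at the 10 PRC2 genes (rows) in the 16 CUT&RUN lists (columns), dark where a peak lies within 2 kb of the start and light where it lies elsewhere in the gene or its upstream flank. EZH2 is at 9 and 8 starts in the WT lists and at 3 and 4 in the lists labelled ATRX KD, and the H3K27me3 columns show peaks in Jarid2 in the lists labelled ATRX KD.

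Positions inside Jarid2 recurred across targets, and the one in most lists is described here. A peak within an intron of Jarid2, beginning between 139992 and 140169 bases after the outermost start, was listed in 12 of the 16 lists. These were the 4 ATRX lists, the 6 EZH2 lists and both H3K27me3 lists labelled ATRX KD, and the H3K27me3 lists of WT and ATRXΔRBR lacked it. The bases common to these peaks are shown, since they carry the result.
Jarid2 intron, plus strand of chr13:44869643-44869900: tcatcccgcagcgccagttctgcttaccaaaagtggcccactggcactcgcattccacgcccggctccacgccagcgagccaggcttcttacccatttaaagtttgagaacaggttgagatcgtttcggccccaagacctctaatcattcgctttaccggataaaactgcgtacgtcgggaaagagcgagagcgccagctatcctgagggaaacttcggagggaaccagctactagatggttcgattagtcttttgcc
Values of single peaks are given within a list and are not compared between lists, whose read depth is not known. Within the lists labelled ATRX KD, its −log10 q was above that of 99.5% to 99.6% of the peaks of those 4 lists, and its fold enrichment was 12.2 in both EZH2 lists and 8.28 and 8.77 in the H3K27me3 lists. In the WT and ATRXΔRBR lists of EZH2, the −log10 q of the site was above that of 82.4% to 99.6% of the peaks, while its fold enrichment was above that of 0.0438% to 11.7% of them. Of the 5376 peaks of the first EZH2 list labelled ATRX KD, 5 overlapped a peak in each of these 12 lists.

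The sequence of this site is not unique. Counting the site itself, 17 sequences of the GRCm38 assembly matched it at 90% identity or more over at least 100 bases, 16 of them on assembled chromosomes. The nearest matches were at 98.3% and 98.1% identity. Peaks lay over these copies as well. The EZH2 lists had a peak on 14 of the 16 in each WT replicate, on 12 and 8 for ATRXΔRBR and on 13 and 12 where labelled ATRX KD, although peaks covered 0.108% to 0.680% of the chromosomes in them. The ATRX lists had one on 8 and 6 in WT and on 8 and 2 in ATRXΔRBR. H3K27me3 peaks were on 0 of the 16 in the 4 lists of WT and ATRXΔRBR, which covered 3.78% to 5.41% of the chromosomes, and on 6 and 5 in the lists labelled ATRX KD, which covered 0.234% and 0.205%. How reads of repeated sequence were placed is not given beyond the default of the aligner, and the part of repeated sequence in this peak was not tested. Without this site, Jarid2 had 0 H3K27me3 peaks in any list.

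**Figure D5:**
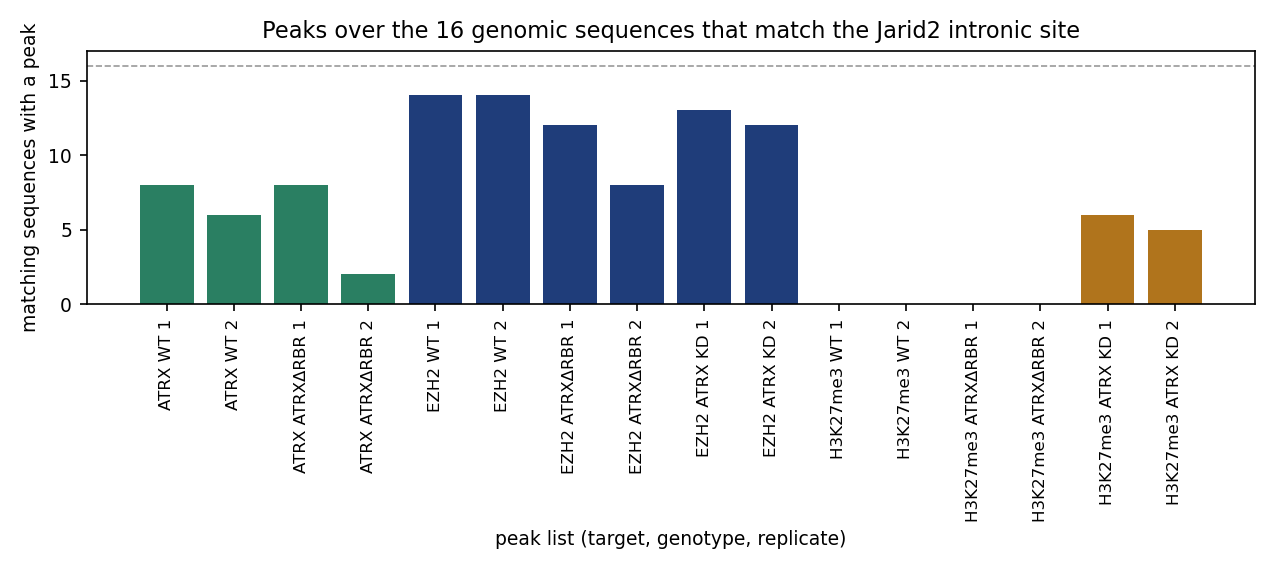
Number of the 16 chromosomal sequences that match the Jarid2 intronic site, the site included, with a called peak in each of the 16 CUT&RUN lists (bars, from 0, with the dashed line at 16). The EZH2 lists have peaks on 8 to 14 of them and the H3K27me3 lists of WT and ATRXΔRBR on 0.

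Other peaks within the genes were in fewer lists. Jarid2 had EZH2 peaks at its start, beginning 732 and 1263 bases into the gene in WT, and again from 3863 and 3857 bases. Far inside Jarid2, EZH2 peaks that began between 178024 and 178186 bases after the start were listed in WT replicate 1, WT replicate 2 and ATRXΔRBR replicate 1, and ATRX peaks overlapped them in WT replicate 2 (from 178245) and ATRXΔRBR replicate 2 (from 178288). In WT replicate 1, ATRX and EZH2 peaks both began at 41518. Rbbp4 had a body peak in ATRXΔRBR replicate 1, from 10231 for EZH2 and from 9973 for ATRX. Phf19 had an EZH2 peak in the gene body in WT replicate 1, WT replicate 2 and ATRXΔRBR replicate 1, which began 8520, 8691 and 8459 bases after the start. In WT replicate 2 this was its one EZH2 peak. The lists labelled ATRX KD had no EZH2 peak at Phf19, Ezh1, Eed, Mtf2 or Aebp2. Of these, Phf19 and Ezh1 rose and Eed, Mtf2 and Aebp2 fell in counts in the libraries labelled ATRX KD against WT, while 31.4% and 41.2% of all expressed genes had a peak at the start in these lists.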

How the data were processed

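RNA-Seq of polyadenylated RNA gave 6 libraries, a pair per genotype, and CUT&RUN gave 16 peak lists. STAR alignments of the RNA-Seq reads were turned by the authors into the deposited estimated counts, TPM and FPKM per gene with RSEM, and FPKM was not used. CUT&RUN reads were mapped to mm10 with Bowtie2, and the authors called broad peaks with MACS2 (broad cutoff 0.1) in each library. The deposited fold enrichment and −log10 q of a peak are averages over the peak by the authors' MACS2 run, and the deposited score, a rounded form of the q-value, was not used. IgG samples were not analysed here. The paper describes the libraries as biological replicates, while the labels name no separate cultures. The p-values measure the spread between libraries, and how much of it is technical is not known. This spread was unequal. It was measured as a chi-square of the counts in a pair of libraries against shares set by library totals. Per gene it was 24.3 in WT, 19.8 in ATRXΔRBR and 2.98 in ATRX KD. The edgeR test used a dispersion shared by the groups compared.

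Estimated counts were rounded, a gene had to exceed 10 counts summed over the 4 libraries compared, and edgeR 4.0.16 (TMM, quasi-likelihood, Benjamini-Hochberg over all genes tested, call at 0.05) was run in R 4.3.3, with DESeq2 1.42.0 as an alternative. Tested on simulated data, the fit recovered 50.5% of 109 genes changed by 1 on the log2 scale in ATRXΔRBR against WT (16334 genes) and 78.2% of 110 in ATRX KD against WT (16785 genes). The simulated libraries were drawn independently, with a dispersion per gene shared by both groups. They thus lacked the unequal spread given above and the correlation of deviations given below, and recovery in the real data may differ. Alternatives were other normalization, filters, all 6 libraries in a fit, a replicate block, leaving out each library, TPM with pseudocounts of 1 and 0.1, and a least log2 fold change of 1. For peaks they were windows of 1 and 5 kb, the peak midpoint, 50% of the peak, −log10 q of at least 2 and any transcript start. Coordinates are GRCm38 with GENCODE M21. Sequences were matched with BLAST+ 2.17.0. Members and lists were chosen with earlier results of these data known. Named genes were the 10 members, a fixed list of partners, the most abundant proliferation genes, Atrx, and the 3 genes most like Ezh2 and Ezh1. The regional medians, the Jarid2 site and its copies were examined after the data were seen. Replicate numbers were not shown to pair libraries. The correlation of deviations of same-numbered libraries was −0.75 for WT and ATRXΔRBR, so that they deviated in opposite directions. The main test did not model this shared structure, and its origin was not tested. The correlation was −0.11 for WT and ATRX KD and 0.15 for ATRXΔRBR and ATRX KD.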

Additional observations from a re-analysis of the deposited data

How the results depend on the processing

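With 2 libraries a group and no depth known for the peak lists, small differences could not be resolved. Where a group was left with 1 library, it was assumed to vary like the other group. In comparisons with the libraries labelled ATRX KD, leaving out a library of the other genotype left the spread to the libraries labelled ATRX KD. That spread was the smallest of the genotypes, so adjusted p from those fits may be too low. The number of PRC2 genes called in ATRXΔRBR against WT, 1, became 2 with all 6 libraries in a fit. In the libraries labelled ATRX KD against WT it was 7, and 2 with a log2 fold change of at least 1. Against ATRXΔRBR it was 2, 1 with DESeq2 and 0 with a log2 fold change of at least 1. Leaving out a library gave 1, 4 to 9 and 0 to 7 PRC2 genes in the 3 comparisons, 0 to 2, 1 to 6 and 1 to 7 partner genes, and 1055 to 1520, 3193 to 8947 and 3089 to 8736 genes in all. The log2 fold change of Suz12 in ATRXΔRBR then ranged from −0.008067 to 0.30 and that of Rbbp4 from −0.25 to 0.16, from −0.17 to 0.23 and from −0.006607 to 0.17 in the 3 comparisons, so that their signs were not settled. The cause of these changes was not tested.

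Partner genes called in ATRXΔRBR were 0, and 1 with DESeq2 or no filter on low counts. Against WT, the libraries labelled ATRX KD had 3, 5 with no filter and 1 with a log2 fold change of at least 1, and against ATRXΔRBR 3, and 1 with that size of change. Over all genes, the 1119 calls in ATRXΔRBR became 1975 with no filter, 596 with at least 10 counts in every library and 1812 with all 6 libraries in a fit. With a log2 fold change of at least 1, the 5538 calls of the libraries labelled ATRX KD against WT became 2495, and the 5734 against ATRXΔRBR became 2612.

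With the replicate number as a block, 1, 5 and 5 partner genes were called in the 3 comparisons, Ezh2 was no longer called in the libraries labelled ATRX KD against WT (adjusted p = 0.106, edgeR's quasi-likelihood test) and Mtf2 was called against ATRXΔRBR (adjusted p = 0.0256, the same test). The block changed no other call of a PRC2 gene. A crossed pairing, chosen after seeing the data, gave 7 PRC2 genes, 4 partner genes and 5585 genes in all in ATRXΔRBR against WT, and 5 partner genes in the libraries labelled ATRX KD against WT.

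For peaks at the start, ATRX counts of PRC2 genes went from 2 to 1 with a window of 1 kb in WT list 1 and in ATRXΔRBR list 1, and to 0 with −log10 q of at least 2 in WT list 2 and ATRXΔRBR list 1. The EZH2 count of ATRXΔRBR list 2 went from 5 to 1 with that threshold. In CPM in place of TPM, the mean ratio of Ezh2 to Ezh1 was 5.48 in WT, 3.24 in ATRXΔRBR and 2.93 in the libraries labelled ATRX KD, and the ratio of PRC2.1 to PRC2.2 genes was 0.867, 1.02 and 1.355. Leaving out a library gave 10.7 to 16.6, 7.01 to 7.78 and 5.69 to 5.96 for the former and 1.11 to 1.18, 1.28 to 1.37 and 1.70 to 1.81 for the latter.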
